A study of Homo sapiens with 6 samples.

Results

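The genes described here encode the proteins of the mitochondrial ribosome. They were chosen by name alone, as every gene on the array whose symbol is MRPL or MRPS followed by a number and an optional letter. This rule gave 76 genes of the 31426 gene symbols on the chip, read by 113 probes. It used no measured value. RNA came from MDA-MB-231 cells, an established human breast cancer line with mesenchymal features, grown in serum-containing medium. In 1 group of 3 samples the cells carried a short hairpin RNA (shRNA) against SOX4, an SRY-related transcription factor, and all 3 carried the same hairpin, shSOX4#1. The 3 samples of the other group carried a scrambled shRNA. The labels name no further agent in either group. Whether the 3 samples of a group were independent cultures is not stated, so the p-values rest on a sample spread that may be technical only. The title of the series places SOX4 downstream of the channel kinase TRPM7 in the mesenchymal state of breast cancer cells.

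The mitochondrial ribosome is a separate ribosome inside the organelle. It makes the few respiratory chain proteins encoded in mitochondrial DNA, most of which enter the membrane as they are made. Its RNA is transcribed inside the mitochondrion, whereas its proteins are encoded in the nucleus, made in the cytosol and imported. Many of these proteins descend from bacterial ribosomal proteins and keep the bacterial number, and the others are found in mitochondria only.

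Levels are given as normalized log2 signal, in which a difference of 1 is a doubling, and differences are SOX4 shRNA minus scrambled. Because probes bind with different strength, signals are compared between samples for 1 probe and not between genes. The SOX4 probe, the check of the label, read 5.46 ± 0.27 in SOX4 shRNA cells and 7.89 ± 0.16 in scrambled cells (SD, n = 3 each). It was lower by a log2 difference of -2.43 ± 0.14 (SE, limma adjusted p = 4.11e-13). The size depended on the processing, at -1.23 without background correction and -3.22 with the authors' values. The probe was detected on 2 of the 3 SOX4 shRNA arrays and on all 3 scrambled arrays. Each array detected between 15197 and 16187 of 47322 probes, and array medians of intensity ran from 118.9 to 124.3. Correlations between arrays were at least 0.9945 within a group and at most 0.9825 between groups. The mesenchymal and basal genes VIM, CD44, CAV1 and AXL were detected on all 6 arrays, and the luminal genes ESR1, PGR and CDH1 on none, while KRT18 was detected on all 6. None of the 3 leucocyte markers was detected on any array, and of the fibroblast markers PDGFRA, DCN and POSTN were detected on none. The other marker calls were PECAM1 on 2 SOX4 shRNA arrays and 1 scrambled array, LUM on 3 SOX4 shRNA arrays and no scrambled array, COL1A1 on 1 scrambled array and GATA3 on 3 SOX4 shRNA arrays and 2 scrambled arrays. In bulk RNA, fewer cells with a transcript and less transcript per cell cannot be told apart.

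All 76 genes were detected on all 6 arrays, so none was lost to the detection filter. SOX4 shRNA cells had more transcript of 17 of them and less of 8, and 51 did not pass the test (limma, Benjamini-Hochberg adjusted p under 0.05 over 12451 rows). The size of these differences was small. The log2 differences ran from -0.39 to 0.51, and the largest was a 1.42-fold increase, so 0 of the 76 reached 1.5-fold, against 7.3% of all rows tested. The called share of 32.9% is near the background, since 30.6% of all rows were called, and 34.3% of the rows whose signal lay in the range of these genes. By direction, the background was 15.2% called higher and 15.4% called lower. The median log2 difference of the 76 genes was 0.09, with 48 positive and 28 negative, against a median of -0.01 over all rows. The median absolute difference was 0.11 for these genes and 0.16 over all rows. The 3 SOX4 shRNA values lay wholly above or below the 3 scrambled values in 35 genes, 24 of them above and 11 below. Over all rows such separation was seen in 42%, with 20.2% above and 21.7% below. Measured against each gene's own mean, the median of the 76 genes was 0.03, 0.03 and 0.02 on the SOX4 shRNA arrays, against -0.01, -0.04 and -0.04 on the scrambled arrays. Leaving out 1 array left between 12 and 17 genes called higher, and fewer called lower: 4 without SOX4 shRNA array 3, 5 without SOX4 shRNA array 2 and 5 without scrambled array 1 or scrambled array 2b.

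**Figure D1:**
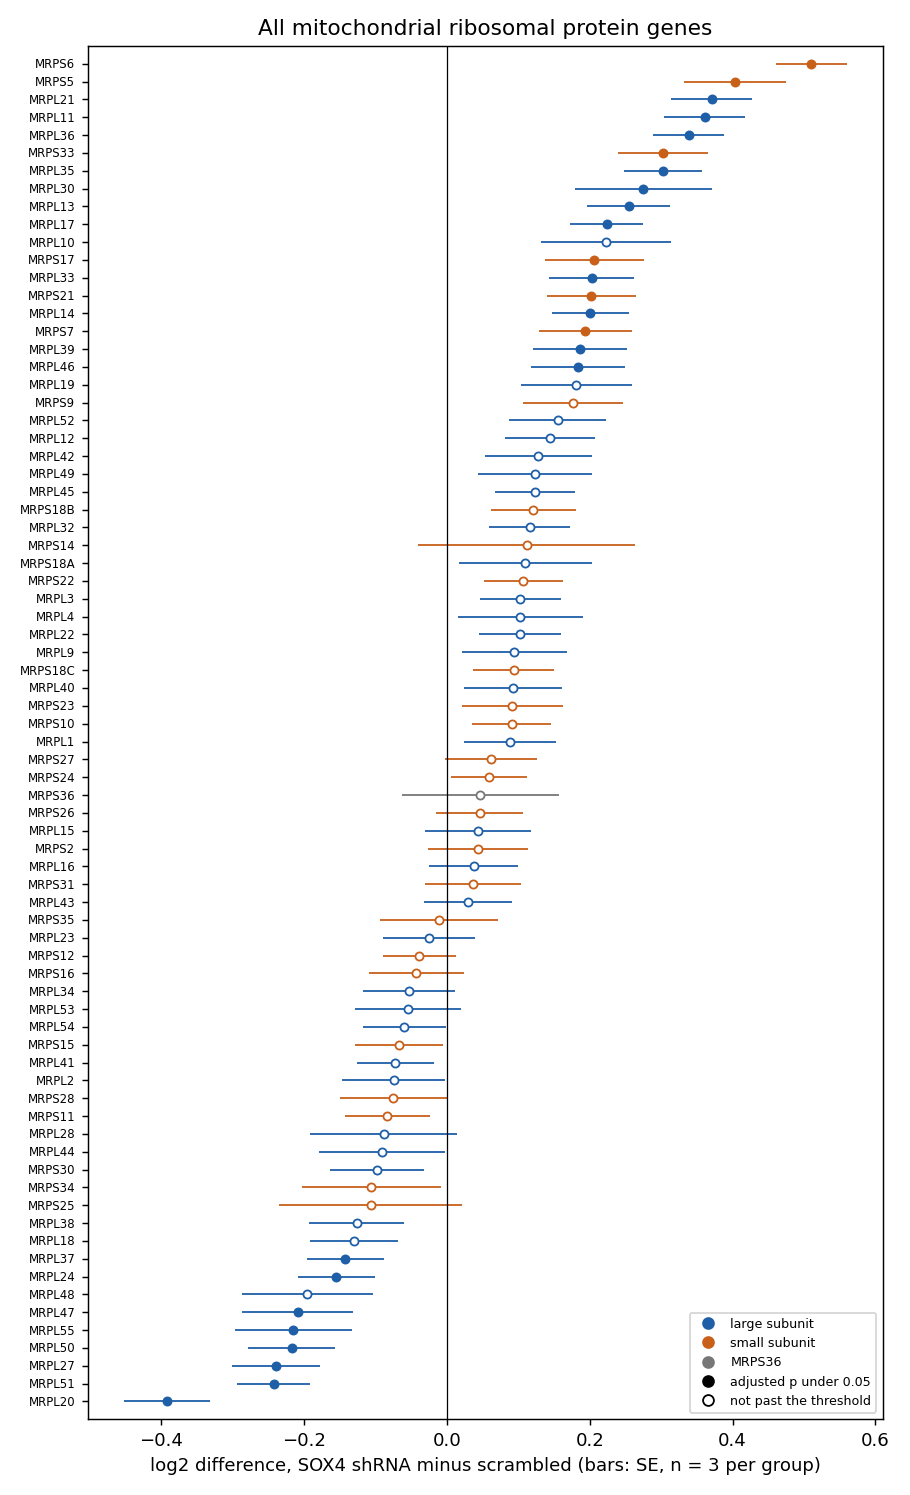
Log2 difference, SOX4 shRNA minus scrambled, of each of the 76 genes with its standard error (n = 3 per group), coloured by ribosomal subunit and filled where the adjusted p is under 0.05. Filled points of the small subunit lie on the positive side only, and MRPS6 at 0.51 and MRPL20 at -0.39 are the ends of the range.

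**Figure D2:**
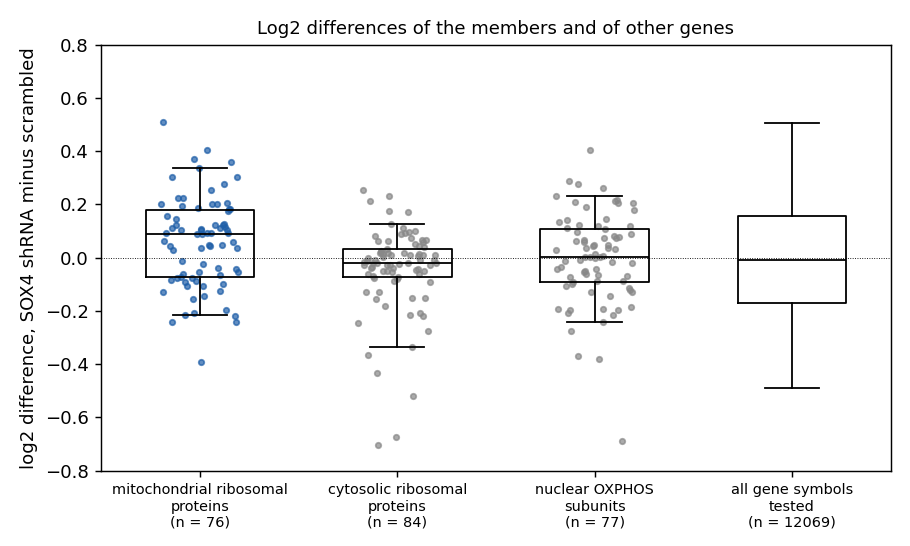
Log2 differences of mitochondrial and cytosolic ribosomal protein genes, genes matched by symbol to nuclear oxidative phosphorylation (OXPHOS) subunits and all gene symbols tested. Boxes span the quartiles, with lines at the medians and whiskers at the 5th and 95th percentiles. Each point is a gene, and no points are drawn for the group of all gene symbols. The vertical axis stops at 0.8 either way, which leaves out part of the range of all genes.

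The small subunit, which binds the messenger RNA and decodes it, had 26 genes on the array. Of these, 6 rose, 0 fell and 20 did not pass the test, with a median log2 difference of 0.08. MRPS6 had the largest difference of the 76 genes. Its bacterial homolog S6 binds next to S18 on the platform of the subunit. MRPS6 read 12.39, 12.39 and 12.38 in SOX4 shRNA cells, against 11.85, 11.86 and 11.93 in scrambled cells. The groups were well apart, with an SD of 0.01 in SOX4 shRNA cells and 0.04 in scrambled cells. The difference was 0.51 ± 0.05 (SE), or 1.42-fold (limma adjusted p = 9.72e-09), and it was past the threshold under all 14 other settings. The gene lies at chr21:34073578-34143030 (GRCh38.p14) and shares its start with SLC5A3, whose own probe was not kept. Which of the overlapping transcripts the MRPS6 probe reads was not tested. Of the 76 genes, 18 overlap another coding gene, among them the called genes MRPS6, MRPS7, MRPL14, MRPL24, MRPL36, MRPL37 and MRPL47. Which transcript their probes read was not tested either.

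MRPS5, the homolog of the bacterial S5 at the entry of the messenger channel, read 9.47, 9.48 and 9.67 in SOX4 shRNA cells, against 9.14, 9.18 and 9.10 in scrambled cells. The groups did not overlap, although SOX4 shRNA array 3 stood above the other two. The difference was 0.40 ± 0.07 (SE, limma adjusted p = 8.65e-05). MRPS33, a small-subunit protein with no bacterial counterpart, read 10.54, 10.41 and 10.34 in SOX4 shRNA cells, against 10.15, 10.12 and 10.11 in scrambled cells. The lowest SOX4 shRNA value was above the highest scrambled value, and the difference was 0.30 ± 0.06 (SE, limma adjusted p = 0.00054). Both genes were called under all 14 other settings.

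The other 3 small-subunit genes that rose had differences near 0.20 and lost the call more easily. MRPS7, the homolog of S7, which organises the head of the subunit in bacteria, had a difference of 0.19 (limma adjusted p = 0.0259), and its call was lost without scrambled array 1 or 2a (0.18 each), SOX4 shRNA array 1 (0.14) or SOX4 shRNA array 2 (0.19). MRPS21 had a difference of 0.20 (limma adjusted p = 0.0154), which lost its call without scrambled array 2b (0.17) or SOX4 shRNA array 1 (0.18), and was 0.07 and not called with the mean of its probes and with the authors' values. MRPS17 read 11.56, 11.31 and 11.25 in SOX4 shRNA cells, against 11.06, 11.26 and 11.19 in scrambled cells. It was the 1 called gene whose groups overlapped, and its difference of 0.21 (limma adjusted p = 0.0238) did not pass the threshold without SOX4 shRNA array 1 (0.11) or scrambled array 1 (0.15).

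Among the 20 small-subunit genes that did not pass the test, differences ran from -0.11 to 0.18. They were MRPS2, MRPS9, MRPS10, MRPS11, MRPS12, MRPS14, MRPS15, MRPS16, MRPS18B, MRPS18C, MRPS22, MRPS23, MRPS24, MRPS25, MRPS26, MRPS27, MRPS28, MRPS31, MRPS34 and MRPS35. MRPS9 came nearest to the threshold, with a difference of 0.18 and the lowest adjusted p of the uncalled genes (limma, 0.0594). With cyclic loess MRPS9 passed it (0.19, limma adjusted p = 0.0431). MRPS36 stands apart from both subunits, because RefSeq now lists it as KGD4, a part of the 2-oxoglutarate dehydrogenase complex. It read 7.41, 7.39 and 7.21 in SOX4 shRNA cells, against 7.12, 7.48 and 7.26 in scrambled cells, which overlap fully, and its difference was 0.05 ± 0.11 (SE, limma adjusted p = 0.788).

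Vertebrates carry 3 paralogs of the bacterial S18, and the data read each of them separately. MRPS18A, which sits in the large subunit, read 9.28, 8.87 and 8.80 in SOX4 shRNA cells, against 8.91, 8.82 and 8.89 in scrambled cells. Only SOX4 shRNA array 1 stood above the scrambled range, and the difference was 0.11 ± 0.09 (SE, limma adjusted p = 0.406). MRPS18B read 10.70, 10.73 and 10.77 in SOX4 shRNA cells, against 10.54, 10.57 and 10.72 in scrambled cells. Scrambled array 2b lay within the SOX4 shRNA range, and the difference of 0.12 ± 0.06 (SE, limma adjusted p = 0.135) was past the threshold only without that array (0.18, limma adjusted p = 0.0418). MRPS18C, which occupies the bacterial S18 position beside MRPS6, read 11.60, 11.75 and 11.76 in SOX4 shRNA cells, against 11.65, 11.63 and 11.54 in scrambled cells. SOX4 shRNA array 1 lay inside the scrambled range, and the difference was 0.09 ± 0.06 (SE, limma adjusted p = 0.225). A second MRPS18B probe had a difference of -0.12 without passing the test. With the authors' values the differences were 0.11 for MRPS18A, -0.0045 for MRPS18B and -0.14 for MRPS18C. A second MRPS18C probe was detected on no array and not kept here, and whether it enters the authors' value was not tested. None of the paralogs was called with all arrays in the fit.

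The large subunit, which joins the amino acids, had 49 genes counting MRPS18A and MRPS30, both of which sit there despite their names. Of these, 11 rose, 8 fell and 30 did not pass the test, with a median log2 difference of 0.09. Every one of the 8 genes that fell was thus a large-subunit gene, and 3 of the 8 were called lower under all 14 other settings. The called shares were 38.8% in the large subunit and 23.1% in the small subunit, on either side of the 30.6% of all rows. The difference in calls between the subunits was not tested.

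MRPL21 read 11, 11.04 and 11.13 in SOX4 shRNA cells, against 10.69, 10.71 and 10.65 in scrambled cells. The groups were clearly apart, with a difference of 0.37 ± 0.06 (SE, limma adjusted p = 1.29e-05). A second probe of MRPL21 had a difference of 0.31, and another, dim probe, with a mean signal of 5.50, had -0.20 without passing the test. MRPL21 was the 1 gene whose kept probes differed by over 0.5, and with the mean of its probes the difference was 0.16 and no longer past the threshold.

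MRPL11, whose bacterial homolog L11 forms the base of the stalk that recruits translation factors, read 10.84, 10.91 and 10.95 in SOX4 shRNA cells, against 10.52, 10.52 and 10.57 in scrambled cells. No value of either group came near the other group, and the difference was 0.36 ± 0.06 (SE, limma adjusted p = 2.06e-05). Of the other MRPL11 probes, 1 had a difference of 0.27 and a dim one had -0.11 without passing the test, and with the mean of the probes the MRPL11 difference was 0.18. MRPL36, a small protein whose bacterial homolog binds zinc, read 12.07, 12.05 and 12.03 in SOX4 shRNA cells, against 11.70, 11.71 and 11.73 in scrambled cells. The groups were far apart for their spread, and its difference was 0.34 ± 0.05 (SE, limma adjusted p = 7.7e-06). Both genes were called under all 14 other settings.

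MRPL35 read 11.32, 11.25 and 11.36 in SOX4 shRNA cells, against 10.98, 10.99 and 11.05 in scrambled cells. The groups did not overlap and differed by 0.30 ± 0.06 (SE, limma adjusted p = 0.000127). Its other probes had differences of 0.10 and 0.11, and the call was lost with the mean of its probes (0.17) and with the authors' own values (0.14). MRPL13, homolog of the bacterial L13, an early-binding protein, read 10.92, 10.92 and 10.86 in SOX4 shRNA cells, against 10.72, 10.59 and 10.61 in scrambled cells. Its difference was 0.25 ± 0.06 (SE, limma adjusted p = 0.00135) and was called under all 14 other settings. MRPL17, a protein of the exit tunnel region, read 12.12, 12.13 and 12.03 in SOX4 shRNA cells, against 11.86, 11.90 and 11.85 in scrambled cells. It differed by 0.22 ± 0.05 (SE, limma adjusted p = 0.00141), also in all 14 settings. MRPL30 read 7.90, 7.98 and 7.74 in SOX4 shRNA cells, against 7.52, 7.57 and 7.69 in scrambled cells. SOX4 shRNA array 3 was only just above scrambled array 2b, and the difference of 0.28 ± 0.10 (SE, limma adjusted p = 0.0302) lost its call without scrambled array 1 (0.24), scrambled array 2a (0.26), SOX4 shRNA array 1 (0.26) or SOX4 shRNA array 2 (0.22).

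The other 4 large-subunit genes that rose had differences of 0.18 to 0.20 and groups that did not overlap. MRPL33 differed by 0.20 (limma adjusted p = 0.0117), and was not called without scrambled array 2a (0.13) or SOX4 shRNA array 2 (0.17). MRPL14 differed by 0.20 (limma adjusted p = 0.00547), and was not called without SOX4 shRNA array 1 (0.15). MRPL39, found in mitochondria only, differed by 0.19 (limma adjusted p = 0.0343), and was not called without scrambled array 2a (0.14), scrambled array 2b (0.20) or SOX4 shRNA array 3 (0.14). MRPL46 differed by 0.18 (limma adjusted p = 0.0351), and was not called without scrambled array 2a (0.19), scrambled array 2b (0.16), SOX4 shRNA array 2 (0.20) or SOX4 shRNA array 3 (0.15).

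MRPL20 fell furthest. Its homolog L20 is needed early in assembly of the large subunit in Escherichia coli. MRPL20 read 9.82, 9.86 and 9.83 in SOX4 shRNA cells, against 10.27, 10.23 and 10.19 in scrambled cells. The groups were far apart, and the difference was -0.39 ± 0.06 (SE, limma adjusted p = 1.51e-05), or 1.31-fold lower. A second MRPL20 probe had a difference of -0.29. MRPL51 and MRPL50 are proteins found in mitochondria only. MRPL51 read 11.80, 11.70 and 11.72 in SOX4 shRNA cells, against 11.98, 11.98 and 11.99 in scrambled cells, a difference of -0.24 ± 0.05 (SE, limma adjusted p = 0.000647). MRPL50 read 9.96, 9.99 and 9.90 in SOX4 shRNA cells, against 10.16, 10.16 and 10.18 in scrambled cells, a difference of -0.22 ± 0.06 (SE, limma adjusted p = 0.00737). In both, the scrambled arrays lay close together and above every SOX4 shRNA array. These 3 genes were called lower under all 14 other settings.

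MRPL27, whose bacterial homolog reaches into the peptidyl transferase centre, read 10.27, 10.10 and 10.17 in SOX4 shRNA cells, against 10.37, 10.42 and 10.46 in scrambled cells. The groups did not overlap and differed by -0.24 ± 0.06 (SE, limma adjusted p = 0.00403). The authors' own values, however, gave a difference of -0.07 that was not past the threshold. Other MRPL27 probes, detected on 0 or 2 arrays, were not kept here, and whether they enter that value was not tested. MRPL55, a protein of the central protuberance, differed by -0.22 ± 0.08 (SE, limma adjusted p = 0.0486). It lost its call without scrambled array 1 (-0.15), scrambled array 2b (-0.21), SOX4 shRNA array 1 (-0.25) or SOX4 shRNA array 3 (-0.14), while its second probe had a difference of -0.31. MRPL24, at the exit tunnel, differed by -0.15 ± 0.05 (SE, limma adjusted p = 0.0315). Its call was lost without scrambled array 1 (-0.15), scrambled array 2a (-0.13), SOX4 shRNA array 2 (-0.13) or SOX4 shRNA array 3 (-0.15).

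MRPL37, a protein with no bacterial counterpart, differed by -0.14 ± 0.05 (SE, limma adjusted p = 0.0454). It kept the call without SOX4 shRNA array 1, and lost it without scrambled array 1 (-0.15), scrambled array 2a (-0.16), scrambled array 2b (-0.12), SOX4 shRNA array 2 (-0.12) or SOX4 shRNA array 3 (-0.13). MRPL47, a relative of the bacterial L29 at the exit tunnel, read 8.59, 8.60 and 8.52 in SOX4 shRNA cells, against 8.66, 8.86 and 8.81 in scrambled cells. The groups did not overlap and differed by -0.21 ± 0.08 (SE, limma adjusted p = 0.0434), but a second MRPL47 probe had 0.24 without passing the test, and the direction turned with the mean of both probes (0.02) and with the authors' values (0.02). Without scrambled array 2a or 2b, or SOX4 shRNA array 1, 2 or 3, the call was lost, with MRPL47 differences of -0.17, -0.19, -0.22, -0.22 and -0.18 in that order.

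**Figure D3:**
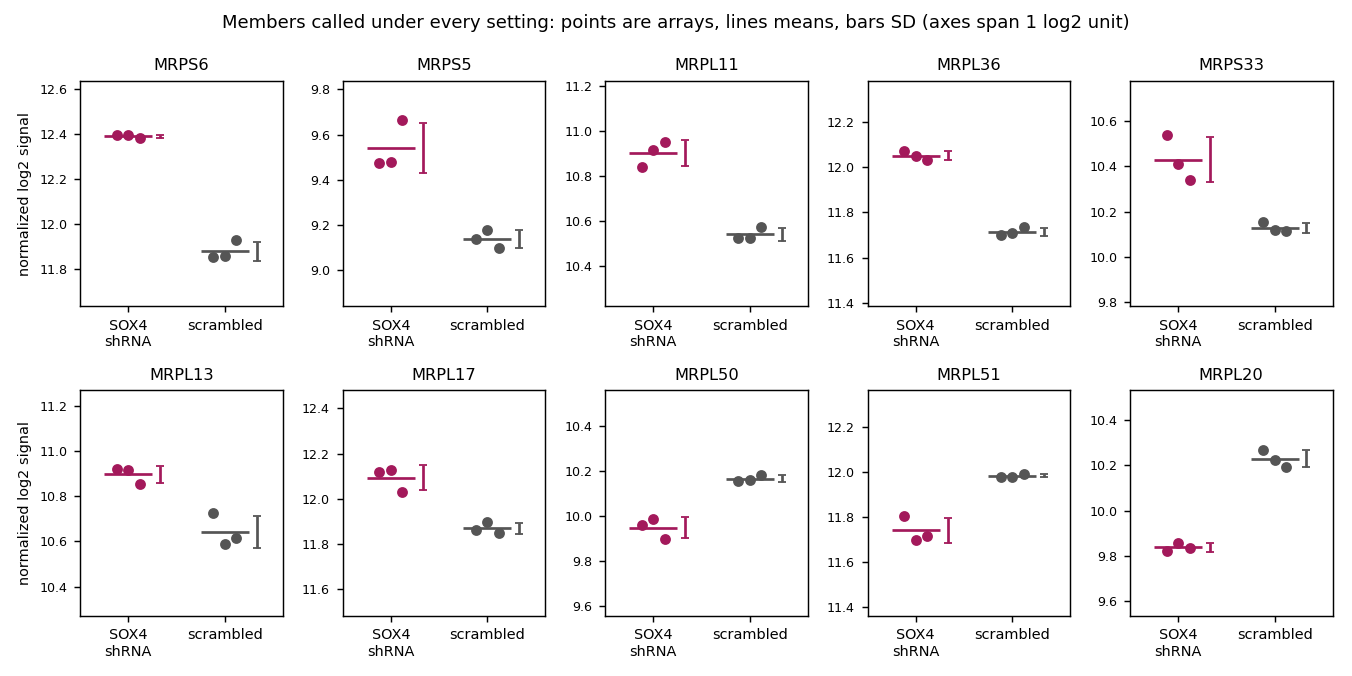
Normalized log2 signal on each array of the 10 genes called under all settings, SOX4 shRNA left and scrambled right, with lines at the means and bars of 1 SD (n = 3 per group). In each of the 10 panels the 3 points of a group lie wholly to 1 side of the other group.

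The 30 large-subunit genes that did not pass the test had differences from -0.20 to 0.22. They were MRPL1, MRPL2, MRPL3, MRPL4, MRPL9, MRPL10, MRPL12, MRPL15, MRPL16, MRPL18, MRPL19, MRPL22, MRPL23, MRPL28, MRPL32, MRPL34, MRPL38, MRPL40, MRPL41, MRPL42, MRPL43, MRPL44, MRPL45, MRPL48, MRPL49, MRPL52, MRPL53 and MRPL54, with MRPS18A and MRPS30. Some of these passed the threshold when 1 array was left out: MRPL10 without scrambled array 1 (0.28) or SOX4 shRNA array 3 (0.28), MRPL19 without scrambled array 2b (0.24), MRPL42 without SOX4 shRNA array 3 (0.22), MRPL48 without scrambled array 2a (-0.27) and MRPL52 without scrambled array 1 (0.21). MRPL52 was also called with the authors' values with or without a block (0.18) and with the mean of its probes (0.18). Its second probe had a difference of 0.21 and passed the threshold (limma adjusted p = 0.015).

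Grouped by place in the ribosome, calls were spread over the sites, which were chosen with these results known. At the stalk, MRPL11 rose, while MRPL10, which carries the stalk dimers in bacteria, read 8.15, 8.20 and 8.0 in SOX4 shRNA cells, against 8.0, 7.90 and 7.78 in scrambled cells. The lowest SOX4 shRNA value was level with the highest scrambled value, and the difference was 0.22 ± 0.09 (SE, limma adjusted p = 0.0652). MRPL12, the homolog of the dimers themselves, read 9.90, 9.82 and 9.83 in SOX4 shRNA cells, against 9.72, 9.71 and 9.70 in scrambled cells. Its groups did not overlap, but the difference of 0.14 ± 0.06 (SE, limma adjusted p = 0.0849) was not past the threshold. With the authors' values MRPL12 passed it (0.15, limma adjusted p = 0.0493). Of 6 exit tunnel genes, MRPL17 rose, MRPL24 and MRPL47 fell and MRPL22, MRPL23 and MRPL45 were not called, with a median of 0.04. Of 6 central protuberance genes, MRPL46 rose, MRPL55 fell and MRPL18, MRPL38, MRPL40 and MRPL48 were not called, with a median of -0.13.

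By descent, the 48 genes with a bacterial homolog had 14 called higher, 5 called lower and a median difference of 0.10. The 27 genes found in mitochondria only had 3 called higher, 3 called lower and a median of 0.03. The called shares were 39.6% and 22.2%, on either side of the 30.6% of all rows, and their difference was not tested.

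Several probes per gene gave a check within the arrays. Of the 76 genes, 23 had more than 1 kept probe, and in 0 of them were probes called in opposite directions. Of the 28 probes beside the brightest, 16 had the sign of the brightest one. For the 25 called genes there were 14 such probes, of which 10 had the same sign and 7 were also past the threshold in the same direction. Those of MRPL33 (0.23), MRPL24 (-0.30) and MRPL30 (0.38) were among them.

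Promoter sequence is shown for the genes at the ends of the range and for a pair of genes called throughout that carry motifs. The factors known to drive nuclear genes of mitochondria are NRF1 (searched as GCGC, any 2 bases and GCGC again), ETS proteins such as GABPA (CCGGAAG) and YY1 (AAGATGGC). They were searched as exact letters on both strands in the 250 bases before the start. The starts are those of the RefSeq promoter table of GRCh38.p14, which holds 68 of the 76 genes. Only the first start listed for each gene was searched. The 150 bases before the start that the table uses are printed 5′ to 3′ on the strand of the gene, and capitals mark a motif on either strand. MRPS6 is at chr21:34073428-34073577 on the plus strand, MRPL36 at chr5:1799838-1799987, MRPL20 at chr1:1407294-1407443 and MRPL51 at chr12:6493263-6493412, these 3 on the minus strand. The MRPL36 window lies inside the gene as annotated (chr5:1798385-1801434), before an internal start, and the other windows adjoin the outer end of their genes.
MRPS6: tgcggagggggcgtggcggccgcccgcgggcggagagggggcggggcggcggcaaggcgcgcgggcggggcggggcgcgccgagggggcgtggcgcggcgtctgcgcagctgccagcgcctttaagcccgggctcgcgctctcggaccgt
MRPL36: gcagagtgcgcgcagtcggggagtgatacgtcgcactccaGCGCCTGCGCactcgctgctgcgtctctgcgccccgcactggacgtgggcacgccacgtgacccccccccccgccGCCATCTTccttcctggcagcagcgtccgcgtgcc
MRPL20: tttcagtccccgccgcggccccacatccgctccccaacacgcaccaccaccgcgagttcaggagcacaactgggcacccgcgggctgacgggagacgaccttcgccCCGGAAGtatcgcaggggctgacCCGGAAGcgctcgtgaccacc
MRPL51: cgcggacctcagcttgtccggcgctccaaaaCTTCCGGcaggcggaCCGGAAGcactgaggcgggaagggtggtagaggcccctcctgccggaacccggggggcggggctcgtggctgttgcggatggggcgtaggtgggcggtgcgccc
The MRPS6 window holds none of the motifs, MRPL36 holds an NRF1 motif and, nearer the start, a YY1 motif, and MRPL20 and MRPL51 each hold a pair of ETS motifs.

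The ETS letters were in 22 of the 68 promoters (32.4%), against 11.8% of 15842 protein-coding promoters. They were in 3 of 14 promoters of genes called higher, in 4 of 8 of genes called lower (MRPL20, MRPL27, MRPL47 and MRPL51) and in 15 of 46 of genes not called. The NRF1 letters were in 8 of 68 (11.8%), close to the 10.5% of protein-coding promoters. They were in 5 of 14 promoters of genes called higher (MRPL14, MRPL17, MRPL30, MRPL36 and MRPS33), in 0 of 8 of genes called lower and in 3 of 46 of genes not called. The YY1 letters were in 5 of 68 (7.35%), against 1.39% of protein-coding promoters. A SOX motif (AACAAAG) was in 0 of 68 windows, against 3.52% of protein-coding promoters. At that share few of 68 windows would hold it, so the count of 0 says little. These counts describe letters in a window and show no binding. The difference between genes called higher and lower was seen after the calls were known and was not tested.

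The genes that work with the mitochondrial ribosome did not move as a block. Of 13 mitochondrial translation factors, all measured, 5 were called higher and 0 lower, with a median difference of 0.11. GFM1, the elongation factor G that moves the ribosome along, read 9.30, 9.35 and 9.30 in SOX4 shRNA cells, against 9.02, 8.95 and 8.99 in scrambled cells. Its groups were well apart, with a difference of 0.33 ± 0.07 (SE, limma adjusted p = 0.000527). MTIF2, the initiation factor, differed by 0.33 (limma adjusted p = 0.000335), but by 0.12 and without a call in the authors' values. GUF1, the homolog of the bacterial LepA, differed by 0.29 (limma adjusted p = 0.00892), which was not called without scrambled array 1 (0.24). The count of 5 translation factors was 3 without SOX4 shRNA array 1 or 3, or scrambled array 1 or 2a.

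Of 24 genes for assembly of the ribosome and maturation of its RNA, 22 were measured, 2 were called higher and 3 lower, with a median of -0.02. The higher ones were C18orf22 (0.36), known as RBFA, a maturation factor of the small-subunit RNA, and RPUSD4 (0.22), a pseudouridine synthase. ERAL1, a GTPase that binds the small-subunit RNA, read 9.67, 9.47 and 9.61 in SOX4 shRNA cells, against 9.96, 9.81 and 9.92 in scrambled cells. The groups did not overlap and differed by -0.31 ± 0.07 (SE, limma adjusted p = 0.00102). TFB1M, which methylates that RNA, differed by -0.32 (limma adjusted p = 0.0161), and was not called without scrambled array 2a (-0.26) or SOX4 shRNA array 1 (-0.28). NSUN4, a methyltransferase that also helps join the subunits, differed by -0.31 (limma adjusted p = 0.023), and was not called without scrambled array 1 (-0.31), scrambled array 2b (-0.27), SOX4 shRNA array 1 (-0.26) or SOX4 shRNA array 2 (-0.27). The count called lower was 1 without SOX4 shRNA array 1, and that called higher was 1 without SOX4 shRNA array 3, where RPUSD4 was lost (0.16). C18orf22 was not called without scrambled array 2a (0.31).

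Of 12 regulators of nuclear mitochondrial genes, 11 were measured, 3 were called higher and 1 lower, with a median of 0.01. MYC, a driver of ribosome and mitochondrial gene expression, read 10.83, 10.86 and 10.96 in SOX4 shRNA cells, against 10.46, 10.56 and 10.44 in scrambled cells. It did not overlap between the groups, and it differed by 0.40 ± 0.06 (SE, limma adjusted p = 1.05e-05). ESRRA, the estrogen-related receptor alpha, differed by 0.43 (limma adjusted p = 0.00603), and was not called without scrambled array 2a (0.31). The factors of the searched motifs had differences of 0.00 ± 0.21 for NRF1 (SE, limma adjusted p = 0.993) and 0.16 ± 0.16 for GABPA (SE, limma adjusted p = 0.483), while YY1 was called higher at 0.20 (limma adjusted p = 0.015), but not without scrambled array 1 (0.15), scrambled array 2a (0.17) or SOX4 shRNA array 2 (0.18). The NRF1 probe was near the detection limit, with a mean of 5.25 in both groups and detection on 2 arrays of each. The NRF1 difference therefore says little about the level of its transcript. Without scrambled array 2a the count of regulators called higher was 1, and without scrambled array 2a or 2b, or SOX4 shRNA array 1 or 2, the count called lower was 0.

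Import brings the ribosomal proteins into the organelle. Of 21 measured import genes, 7 were called higher and 1 lower, with a median of 0.07. Among the higher ones were TOMM5 (0.25), a small subunit of the outer membrane channel, and TIMM23 (0.22), the inner membrane channel, while the lower one was the cytosolic helper TOMM34 (-0.28). Without SOX4 shRNA array 1 or scrambled array 1 the count called higher was 3, without scrambled array 2b it was 4, and without SOX4 shRNA array 1 the count called lower was 2. The count called higher was 1 without the intensity trend and 4 without a detection filter. Of 12 chaperones and proteases, the partners HSPD1 (0.24) and HSPE1 (0.26) and the protease AFG3L2 (0.22) were called higher, and CLPX (-0.24) and PHB2 (-0.19) lower, with a median of 0.01 over the list. The count called lower there was 0 or 1 with any 1 array left out. HSPE1 was not called without scrambled array 1 (0.18) or SOX4 shRNA array 3 (0.17), and AFG3L2 was not called without scrambled array 2a (0.19) or SOX4 shRNA array 1 (0.18). HSPD1 was not called with the authors' values (0.13) or with the mean of its probes (0.12).

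Of 19 measured mitochondrial aminoacyl-tRNA synthetases and partners, which charge the transfer RNAs the ribosome uses, CARS2 (0.47), GATC (0.39) and AARS2 (0.37) were called higher and HARS2 (-0.23) lower. The median was 0.05, and the count called lower was 0 without SOX4 shRNA array 1 or scrambled array 2a or 2b. GATC was not called without scrambled array 1 (0.29) or SOX4 shRNA array 3 (0.32), and AARS2 was not called without scrambled array 2a (0.27) or SOX4 shRNA array 2 (0.30). Of 15 measured genes of mitochondrial transcription and RNA processing, SUPV3L1 (0.22) and C17orf42 (0.23) were called higher and HSD17B10 (-0.27) lower, with a median of 0.06. SUPV3L1 was not called with any 1 array left out (0.19 to 0.24), nor C17orf42 without scrambled array 1 (0.19), scrambled array 2b (0.22), SOX4 shRNA array 2 (0.22) or SOX4 shRNA array 3 (0.14). C17orf42 was at 0.07 and not called with the authors' values. The count called higher was thus 0 or 1 with any 1 array left out, and the count called lower was 0 without SOX4 shRNA array 1 or 2 or scrambled array 1. TFAM, which packages mitochondrial DNA, differed by 0.08 (limma adjusted p = 0.362), and the RNA polymerase POLRMT by 0.00 (limma adjusted p = 0.989). Of 9 genes of mitochondrial DNA maintenance, TOP1MT (0.31) and SSBP1 (0.26) were called higher and C20orf72 (-0.44) and DGUOK (-0.20) lower, with a median of -0.06. TOP1MT was not called with the authors' values (0.25) or with the mean of its probes (0.18). Of 5 measured mitochondrial ribosomal proteins listed under other symbols, 0 were called in either direction, with a median of -0.01.

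Of 84 measured cytosolic ribosomal protein genes, 5 were called higher (RPL17, RPL23, RPL31, RPS7 and RPS28) and 15 lower, with a median of -0.02 and a range from -0.70 to 0.25. The 3 largest falls were those of RPL37 (-0.70), RPS23 (-0.67) and RPL39L (-0.52), and RPL17 had the largest rise (0.25). The RPL37 probe was dim, with mean signals of 5.85 in SOX4 shRNA cells and 6.55 in scrambled cells. The fall of RPL37 thus rests on a weak signal. RPL37 was not called with the authors' values and a block. Without the intensity trend 1 cytosolic gene was called higher and 8 lower, and the count called higher was 3 without SOX4 shRNA array 1 or scrambled array 2a. Nuclear genes of the OXPHOS complexes, the destination of the proteins the mitochondrial ribosome makes, were taken by symbol alone. The match also took in genes that are not subunits, such as COX4NB (called lower at -0.37) and the pseudogene ATP5EP2. Of 77 measured genes so matched, 12 were called higher and 10 lower, with a median of 0.00, and these counts were 4 and 5 without the intensity trend. With the authors' values and a block 6 OXPHOS genes were called lower. These shares stand against the background of 15.2% called higher and 15.4% called lower, and no list was tested as a whole or against another. Over the 14 other settings, the counts called higher ran from 3 to 5 for translation factors, 1 to 4 for assembly, 1 to 3 for regulators, 2 to 4 for synthetases, 1 to 3 for chaperones and proteases, 0 to 2 for transcription and 1 to 3 for DNA maintenance.

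**Figure D4:**
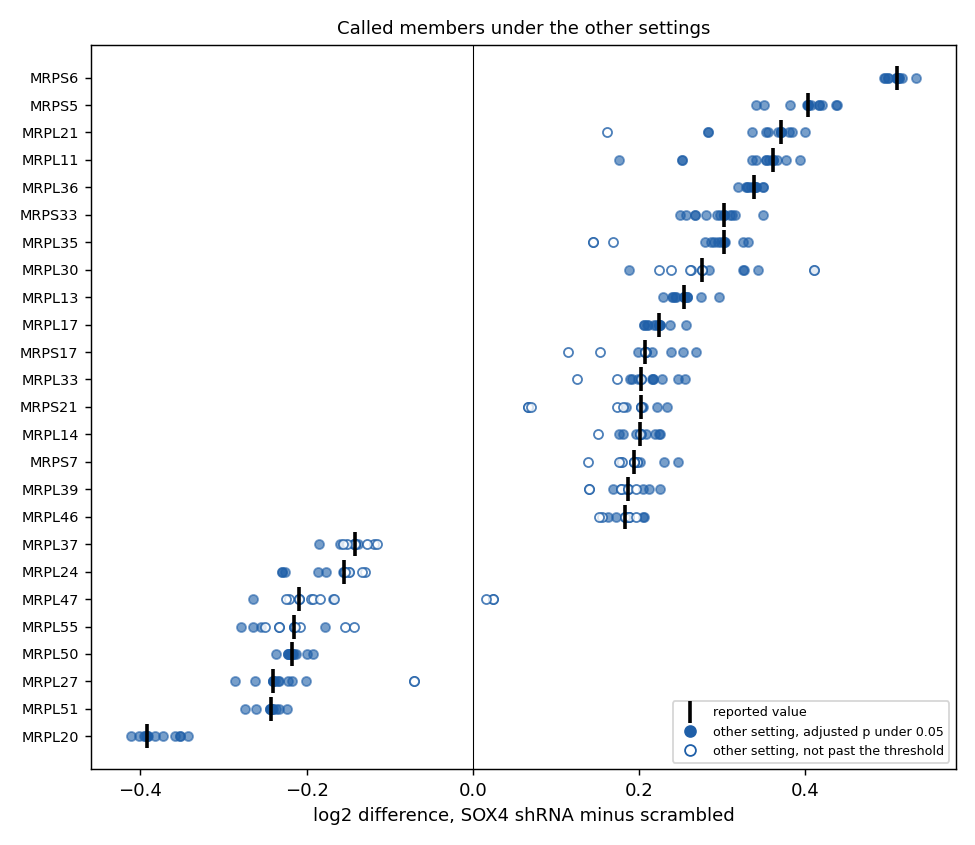
Log2 difference, SOX4 shRNA minus scrambled, of the 25 called genes as reported (black marks) and under the 14 other settings of the processing (circles, filled where the adjusted p is under 0.05). MRPL47 has circles on both sides of 0, while the circles of MRPS6 lie between 0.50 and 0.53.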

How the data were processed

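Arrays were Illumina HumanHT-12 v4 BeadChips, 1 per sample, and the submitters' processing notes name GenomeStudio 2011.1. Per the file headers, the authors deposited raw probe intensity, with no background removed, and a detection p-value beside each intensity. They also deposited log2 values, 1 per gene symbol, which header lines credit to RMA in ArrayStar. Column medians of these log2 values ran from 2.8 to 2.82, and their differences correlated at 0.928 with those reported here over 12067 symbols, in the same direction. How they were centred and scaled is otherwise unknown. A further table of group means and folds was not used, because 1 of its headings names another hairpin.

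A pair of intensity columns carry the heading of scrambled replicate 2 and none that of replicate 3. They are called 2a and 2b and were treated as separate arrays. They correlated at 0.9966 over all probes and shared the same intensity at 1 probe, so neither is a copy of the other. Whether they come from separate samples cannot be told from these values.

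Intensities were corrected and normalized with neqc (limma 3.58.1, R 4.3.3, offset 16, quantile). Probes with detection p under 0.01 on at least 3 of 6 arrays were kept, 15717 of 47322 (33.2%). The brightest kept probe stood for each symbol, giving 12451 rows. The comparison used lmFit and eBayes (trend on), with Benjamini-Hochberg adjustment over all rows and a threshold of 0.05. The test was checked on simulated data with 50 genes changed at each size. It recovered 22% of those changed by a log2 of 0.3, 74% at 0.6 and 98% at 1, with 4 false calls among 151. Fewer genes changed there than were called here, so recovery in the data may differ. A gene that did not pass the test is thus not shown to be unchanged. The number of arrays limits the precision. No pairing of samples by a number shared between groups was seen: deviations of same-numbered samples correlated at 0.016, -0.001 and -0.023 in the authors' values. Settings tried beside these were the authors' values with and without a block, other detection filters, the mean of the probes, no trend, cyclic loess, no background correction and leaving out each array.

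Genes named with values were the called members whose groups did not overlap, up to 10 in each direction, the S18 paralogs, genes with discordant probes and up to 3 called genes of each list in each direction, of which a part is printed. MRPL10, MRPL12, MRPS9, MRPS17, MRPS36, YY1, C17orf42, HSD17B10 and the remaining called members were added after their values were seen. The members, lists and sites were chosen with earlier results of these data known. Plots come from matplotlib 3.10.9 (Python 3.11.15). Symbols and promoters are from RefSeq, GRCh38.p14.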

Additional observations from a re-analysis of the deposited data

How the results depend on the processing

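With all 6 arrays, 17 mitochondrial ribosomal protein genes were called higher and 8 lower. The count called higher was 9 without the intensity trend, 11 with the authors' values and a replicate block, and 12 to 17 with 1 array left out. The count called lower was 4 in each of 4 cases: without the trend, without a detection filter, with the authors' values, and with those values and the replicate block. With 1 array left out it was 4 to 6. The median log2 difference of 0.09 was 0.0673 without background correction, 0.0767 with cyclic loess, 0.0507 with the authors' values with or without the block, 0.0528 with the mean of the probes and 0.0668 to 0.0815 with 1 array left out. SOX4 was called lower under each setting that tested its probe, at -3.22 to -1.23. Of the 25 called genes, 10 were called in all 14 settings, 13 with each array left out in turn, and 24 had their direction in all 14. MRPL47 was the exception, at 0.0245 with the authors' values with or without the block and at 0.0162 with the mean of the probes. The cause of these shifts was not tested, except that the fit without a detection filter adjusted over 34696 rows. Over all rows the called share was 8.77% without the filter and 22.1% to 32.1% otherwise, higher calls were 47.8% to 51.6% of all calls, and the median stayed between -0.014 and -0.0028. No sample pairing was shown by the data, though the correlations could not show that there was none. The block left the differences in the authors' values as they were and changed only their p-values, so a call lost under the block says nothing on the size of an effect.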

Other observations

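In Escherichia coli several of these ribosomal proteins are encoded side by side in shared operons, among them L21 with L27, L35 with L20, S6 with S18 and L11 with L1. In human cells each is a separate nuclear gene. These 4 pairs were chosen after the values were seen, and the log2 ratio of the first to the second gene within each array is given. Other operon partners were not compared, so these pairs do not describe such partners as a whole. MRPL21 over MRPL27 was 0.73, 0.94 and 0.96 on the SOX4 shRNA arrays, against 0.32, 0.29 and 0.20 on the scrambled arrays. MRPL35 over MRPL20 was 1.5, 1.39 and 1.53 on the SOX4 shRNA arrays, against 0.71, 0.76 and 0.86 on the scrambled arrays. In both pairs the first gene rose and the second fell. MRPS6 over MRPS18C was 0.80, 0.64 and 0.62 on the SOX4 shRNA arrays, against 0.20, 0.23 and 0.39 on the scrambled arrays. MRPL11 over MRPL1 was 1.23, 1.31 and 1.28 on the SOX4 shRNA arrays, against 1.00, 0.94 and 1.06 on the scrambled arrays. Here the first gene rose and the second was not called. No test is given, because choosing the pairs by their calls largely fixed these ratios. A ratio within an array compares changes of 2 probes and not the levels of 2 transcripts.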
